A study of Mus musculus with 16 samples.

Results

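The nuclear respiratory chain genes are the genes of the cell nucleus that encode subunits of the 5 complexes of oxidative phosphorylation in the inner mitochondrial membrane. They were chosen by symbol: Nduf genes of the a, b, c, s and v series for complex I, Sdha to Sdhd for complex II, Uqcr for complex III, Cox4 to Cox8 for complex IV and Atp5 for complex V. The symbols of 97 of the 55421 gene rows matched, of which 8 carry a pseudogene suffix and 6 had fewer than 10 counts over all samples (Cox7b2, Cox8b, Cox8c, Ndufa11b, Ndufs6b and a second Atp5o identifier), which left 83 members. Complex I has 38 of them, complex II 4, complex III 8, complex IV 16 and complex V 17. These complexes were assigned by symbol alone, so a member such as Ndufa4 need not be a subunit of the complex it is counted in. All 83 passed the filter on low counts that 21085 genes passed.

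The study profiled lymph node macrophages by RNA sequencing in male C57BL/6 mice carrying MOC2, a mouse squamous cell carcinoma line implanted in the skin of the flank 2 weeks earlier. Sub-capsular sinus macrophages (SSMs) and medullary sinus macrophages (MSMs) were sorted as live CD45+ CD3- B220- Ly6G- CD11b+ CD169+ cells, CD11c- for SSMs and CD11c+ for MSMs. Both came from tumor-draining lymph nodes (tdLN) and from non-draining lymph nodes (ndLN) of the same pools of tumor-bearing mice, so ndLN are not nodes of tumor-free mice. Each pool held the nodes of 2 mice, 2 tdLN or 6 ndLN, and each of the 4 groups has 2 libraries, so n = 2 throughout. The tumor was placed near the inguinal node, and the ndLN were inguinal, axillary and brachial nodes of the other side. Drainage of the tumor and the mix of node sites thus differ together between tdLN and ndLN. Levels are in CPM, counts brought to a common library size, after scaling by TMM, a method that sets the bulk of genes equal between libraries. Values are given for library 1 and then library 2 of a group.

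Complex I takes electrons from NADH and complex II from succinate. Both pass them through coenzyme Q to complex III, which reduces cytochrome c, and complex IV hands the electrons to oxygen. Complexes I, III and IV pump protons, and complex V, the ATP synthase, uses the returning protons to make ATP. A few subunits of complexes I, III, IV and V are encoded by mitochondrial DNA, and all subunits of complex II are nuclear. Macrophages are known to change their use of this chain with their activation state, and succinate oxidation at complex II is a known branch point in inflammatory macrophages.

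Depth was similar in all libraries, with 42972328 to 48130352 counts on genes. The members took between 0.870% and 1.23% of these counts. Of the 83 members, 75 had a mean normalized count above 100 per lane and 8 did not, against 9996 of all genes above that minimum. The 8 were Ndufa4l2, Ndufb4c, Cox4i2, Cox6a2, Cox6b2, Cox6c2, Cox7a1 and Atp5l. The annotation lists Ndufb4c and Cox6c2 as processed pseudogenes. Most macrophage markers were present in every group. The sort marker gene Siglec1 (CD169) stood at 15.1 and 8.47 CPM in SSMs and 0.795 and 1.63 CPM in MSMs of ndLN, against 70.0 and 59.2 CPM in SSMs and 5.96 and 5.64 CPM in MSMs of tdLN. Vsig4 was at 0 in all libraries, Mertk lay between 0.129 and 14.1 CPM, and Csf1r between 194 and 1887 CPM.

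The promoters of these genes are known for binding sites of NRF1, of the ETS factor GABP and of YY1, factors named for their part in expressing mitochondrial genes. RefSeq promoter windows on GRCm38.p6, each 250 bases before and 50 bases after an annotated start, were matched to 66 of the 83 members. The letters GCGCATGCG (NRF1), searched on both strands, were in the windows of 8 members (12.1%) and of 1.95% of all 27025 genes with a window. The letters CCGGAAG (ETS) were in 16 members (24.2%) against 9.93% of all genes, and AAGATGGC (YY1) in 10 members (15.2%) against 3.19%. GGGCGG (SP1) was in 40.9% of members and 38.2% of all genes. These are matches of letters only. The NRF1 letters overlap their own reverse complement, so a palindromic site is counted once per gene. The 8 NRF1 matches are shown because NRF1 had the largest excess over all genes as a ratio of shares, with the motif in capitals and up to 10 bases on either side, 5′ to 3′ on the strand of the gene.
Ndufa8 (complex I, minus strand, chr2:36049329-36049357): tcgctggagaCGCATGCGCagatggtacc
Ndufa11 (complex I, plus strand, chr17:56717692-56717720): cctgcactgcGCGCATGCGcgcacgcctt
Uqcr11 (complex III, minus strand, chr10:80406808-80406836): atcgccttcaCGCATGCGCtatacgtctg
Uqcrc1 (complex III, plus strand, chr9:108936668-108936696): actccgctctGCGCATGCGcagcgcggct
Cox6a1 (complex IV, minus strand, chr5:115349102-115349130): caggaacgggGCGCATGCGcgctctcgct
Atp5g2 (complex V, minus strand, chr15:102671071-102671099): ggctccggccGCGCATGCGcagagccttc
Atp5k (complex V, minus strand, chr5:108434431-108434459): tttcactgcgGCGCATGCGcctttctggc
Atp5l (complex V, minus strand, chr9:44920965-44920992): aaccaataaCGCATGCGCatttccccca

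Sequences are also shown for members that passed the call between SSMs and MSMs of ndLN. Sdhd has an ETS match that begins 46 bases before its start, and Atp5f1 (Atp5pb in RefSeq) has a YY1 match that begins 3 bases before its start. The windows of Uqcrfs1, Atp5b and Atp5c1 held none of the NRF1, ETS and YY1 letters. For Uqcrfs1 and Atp5b the 100 bases before the outermost annotated start are given. The capitals mark the motif.
Sdhd (complex II, minus strand, chr9:50603879-50603905): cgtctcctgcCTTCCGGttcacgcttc
Atp5f1 (complex V, minus strand, chr3:105959249-105959276): tgtgcgagcgGCCATCTTgctcctgccc
Uqcrfs1 (complex III, minus strand, chr13:30545363-30545462): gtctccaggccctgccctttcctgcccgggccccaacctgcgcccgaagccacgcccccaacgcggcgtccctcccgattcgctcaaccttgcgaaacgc
Atp5b (complex V, plus strand, chr10:128083173-128083272): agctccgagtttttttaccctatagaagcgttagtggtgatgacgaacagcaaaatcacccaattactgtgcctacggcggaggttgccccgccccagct

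SSMs from ndLN had the lowest level of the 4 groups in every complex. The summed level of complex I was 2033 ± 299 CPM (SD, n = 2) in SSMs and 2543 ± 63.6 in MSMs of ndLN, and 2754 ± 174 in SSMs and 3078 ± 350 in MSMs of tdLN. Complex II, in the same order of groups, was at 613 ± 7.91, 810 ± 73.0, 805 ± 14.5 and 867 ± 32.3 CPM. The SSM ndLN libraries lay below the other 6 in both complexes, and the SSM and MSM libraries of tdLN overlapped in complex I. Complex III was at 841 ± 59.7, 1197 ± 15.8, 1105 ± 29.7 and 1337 ± 134 CPM, and complex IV at 1361 ± 302, 1720 ± 149, 1838 ± 109 and 2149 ± 358 CPM. Complex V was at 3286 ± 161, 4322 ± 105, 3882 ± 61.0 and 4781 ± 221 CPM. In complexes III and V the SSM tdLN libraries also lay below the MSM libraries of both nodes, which was not so in complexes I and IV.

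**Figure D1:**
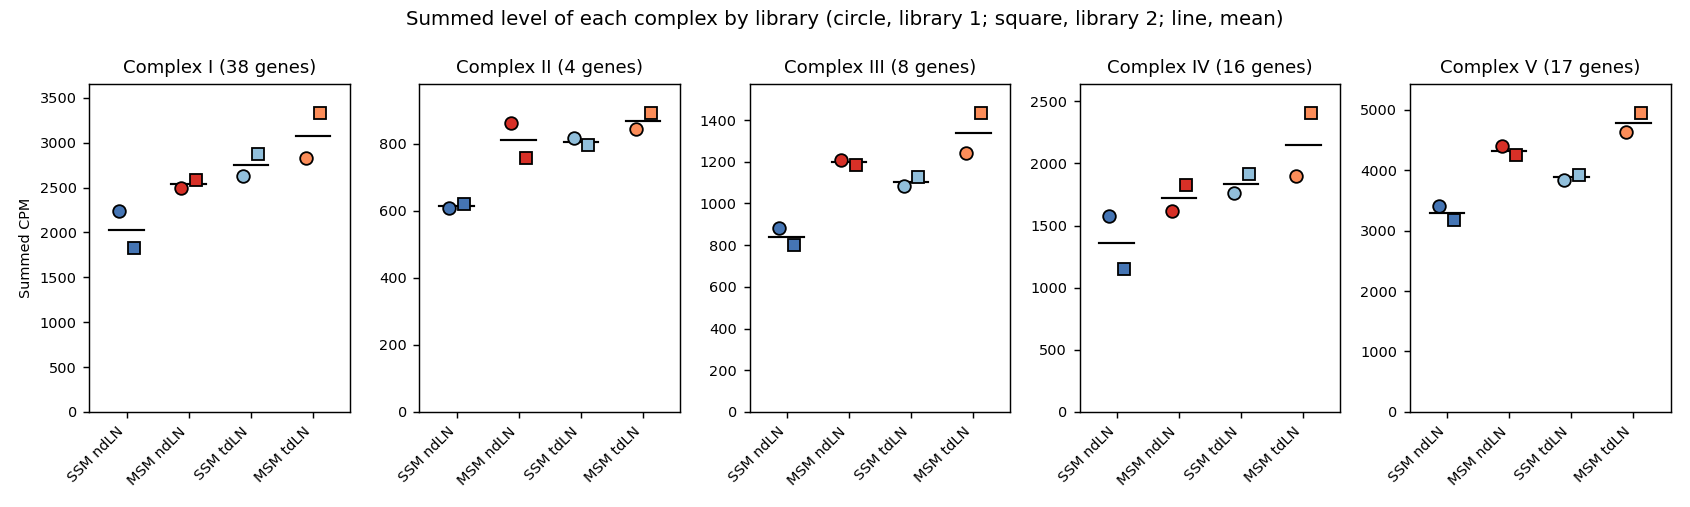
Summed CPM of the members of each complex (y axis, from 0) in the 8 libraries by group (x axis), with circles for library 1, squares for library 2 and a line at the group mean. SSMs from ndLN are lowest in all 5 panels, and their 2 libraries are farthest apart in complex IV (1575 and 1147 CPM).

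Library 2 of SSMs from ndLN stood apart from library 1 in these genes. Of the 75 members above the count minimum, 67 were lower in library 2 than in library 1, with a median log2 ratio of −0.31, whereas the median over all genes above the minimum was 0.02. In MSMs from tdLN the difference ran the other way, with 68 of 75 members higher in library 2 and a median log2 ratio of 0.27. The ratio of the SSM ndLN libraries followed exonic length, with a Pearson r of 0.47 with log2 length across the 75 members (genes of the same libraries, given as a description) against 0.12 across all genes. Its median was −0.37 in the 37 shorter members and −0.23 in the 38 longer ones. The other groups also had a length trend across the members, with r of −0.28 in MSMs of ndLN, −0.27 in SSMs of tdLN and −0.43 in MSMs of tdLN. Across all genes these were −0.04, −0.16 and −0.09. Cytosolic ribosomal protein genes, which are also short, summed to 16022 and 10337 CPM in the SSM ndLN libraries. The part of this library difference in each result below was not tested, and the counts and medians of the members, their complexes and the other gene lists are also given without library 2 of SSMs from ndLN.

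Levels between genes were compared as CPM per kilobase of exonic sequence, averaged over the 8 libraries. Cox6a1 was highest at 376 CPM per kb, followed by Cox6b1 at 310, Atp5b at 301, Cox8a at 276 and Atp5a1 at 235. Cox6a1, Cox6b1 and Cox8a are small subunits of complex IV that turn up in most tissues, and Atp5a1 and Atp5b are the alpha and beta subunits of the catalytic head of the ATP synthase. The highest complex I member was Ndufa1 at 173 CPM per kb, and the highest of complexes II and III were Sdhd at 142 and Uqcrb at 196. Among the 75 members above the count minimum, the lowest were Ndufb2 at 2.35, Atp5s at 2.67 and Ndufb4 at 4.10 CPM per kb. Near-identical copies limit a few of these values. The share of a member's 50-base transcript windows found also in another gene was above 20% for 6 members, namely Ndufb4c, Cox6c2, Atp5g2 (38.4%), Uqcrb (25.4%), Cox7c (22.1%) and Ndufs5 (21.7%), and 39 members shared none.

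In ndLN, SSMs were compared with MSMs to ask how the subsets differ away from the tumor. Of the members, 5 fell in SSMs at an adjusted p under 0.01 with a mean normalized count above 100 per lane (edgeR's quasi-likelihood test, Benjamini-Hochberg over all genes), while 0 rose. This is 5 of 83 members, where 12.1% of all genes tested passed the same call (6.01% rose and 6.06% fell) and 25.5% of the genes above the count minimum did. Of the 75 members above the minimum, 70 had a negative and 5 a positive log2 fold change, where 46.9% of all such genes were positive, and the median was −0.37, against −0.06 over all. The SSM libraries were below the MSM libraries without overlap in 50 members (66.7%), where 39.3% of all genes above the minimum were, and were above them in 1, against 33.3%. The share of members called was thus below the background, and the share lower without overlap was above it. At an adjusted p under 0.05, 18 of the 75 passed, against 38.9% of all genes above the minimum, and at an unadjusted p under 0.05 30, against 52.8%.

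The fall in SSMs from ndLN was called in members of complexes II, III and V. Sdhd (ENSMUSG00000000171, mm10 chr9:50596357-50603812), the membrane anchor of complex II that helps bind coenzyme Q, was at 113 and 105 CPM in SSMs and 192 and 166 in MSMs of ndLN, and at 182 and 182 in SSMs and 217 and 246 in MSMs of tdLN. Its log2 fold change was −0.72 ± 0.14 (SE), adjusted p = 0.00914. Both SSM libraries of ndLN were below all other libraries, and the SSM libraries of tdLN lay within the range of the MSM libraries of ndLN. Uqcrfs1 (ENSMUSG00000038462, chr13:30540308-30545362), the Rieske iron-sulfur protein of complex III, was at 118 and 106 CPM in SSMs and 200 and 205 in MSMs of ndLN, and at 153 and 163 in SSMs and 188 and 232 in MSMs of tdLN. It fell by 0.85 ± 0.15 on the log2 scale, adjusted p = 0.00499. Here the SSM libraries of both nodes lay below the MSM libraries of both nodes.

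The other 3 encode parts of the ATP synthase. Atp5c1 (ENSMUSG00000025781, chr2:10056016-10080510), the gamma subunit that turns inside the catalytic head, was at 220 and 195 CPM in SSMs and 379 and 353 in MSMs of ndLN, and at 313 and 312 in SSMs and 421 and 477 in MSMs of tdLN (log2 fold change in ndLN −0.82 ± 0.13, adjusted p = 0.00343). Atp5f1 (ENSMUSG00000000563, chr3:105942698-105960099), the b subunit of the peripheral stalk, was at 210 and 191 CPM in SSMs and 334 and 305 in MSMs of ndLN, and at 274 and 260 in SSMs and 351 and 380 in MSMs of tdLN (−0.67 ± 0.12, adjusted p = 0.00666). Atp5b (ENSMUSG00000025393, chr10:128083273-128090391) was at 947 and 1008 CPM in SSMs and 1544 and 1396 in MSMs of ndLN, and at 1134 and 1128 in SSMs and 1566 and 1464 in MSMs of tdLN (−0.59 ± 0.11, adjusted p = 0.00589). All 3 had the order SSM ndLN, SSM tdLN, MSM without overlap.

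**Figure D2:**
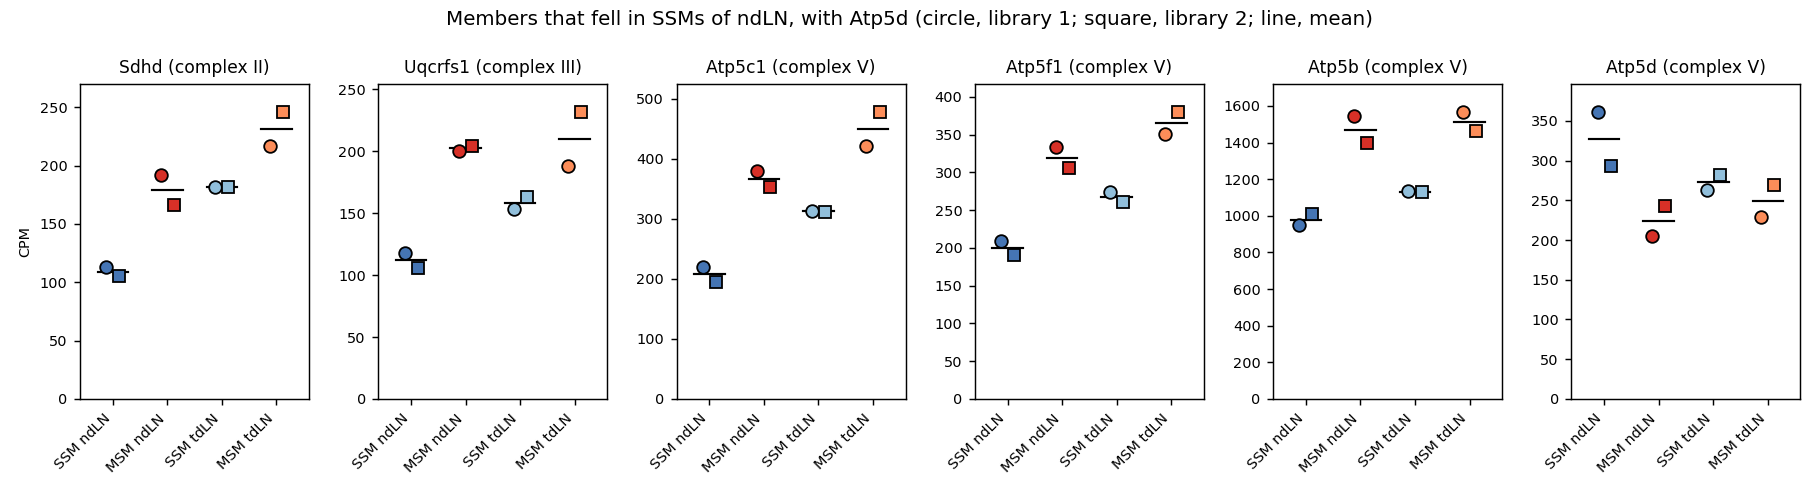
CPM (y axis, from 0) of the 5 members that fell in SSMs against MSMs of ndLN, and of Atp5d, in the 8 libraries by group, with circles for library 1, squares for library 2 and lines at the group means. The SSM ndLN libraries are below all others in the first 5 panels, while Atp5d is highest there (361 and 294 CPM).

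The direction of the members depended on scaling. Without TMM, with library size alone, 43 of the 75 had a negative log2 fold change with a median of −0.08, the median over all genes above the minimum moved from −0.06 to 0.23, complex I had 18 positive and 18 negative members, and the only member that passed the call was Atp5d, which rose. Relative to the median of all genes, the members' median was −0.31 under TMM, under DESeq2's size factors and with library size alone. The single libraries also bore on the calls. Without library 2 of SSMs from ndLN the median was −0.15 with 51 of 75 negative, −0.08 relative to all genes, and 2 members passed, Atp5b which fell and Atp5d which rose. Without library 1 of that group 7 fell, of which Atp5c1 and Uqcrfs1 were among the 5. The count was 2 without either library of MSMs from tdLN and 0 without either library of MSMs from ndLN or of SSMs from tdLN. The libraries of tdLN are not part of this comparison and enter it only through the shared spread and the pool term, and without either SSM tdLN library the log2 fold changes of Atp5b (−0.58 and −0.59) and Atp5c1 (−0.81 and −0.82) were about as large as with all. In a model without pool as a replicate block, 8 members fell, the 5 with Cox7a2l, Uqcrb and Uqcrc2.

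By the median with all libraries, complex III was furthest below MSMs in ndLN. Its 8 members had a median log2 fold change of −0.64, and 7 of 8 were lower without overlap. Uqcrh, the hinge protein, was the exception with 0.08. Complex V had a median of −0.38 over 16 members, complex II −0.40 over 4, complex IV −0.30 over 11 and complex I −0.28 over 36. In complex I the smallest adjusted p belonged to Ndufv2, an iron-sulfur subunit of the NADH-oxidizing arm, with 86.6 and 64.9 CPM in SSMs and 120 and 127 in MSMs of ndLN (log2 fold change −0.70 ± 0.18, adjusted p = 0.0265). Ndufs1, the largest subunit of that arm, was at 70.4 and 75.3 CPM in SSMs and 76.7 and 80.2 in MSMs (−0.11, adjusted p = 0.659). In complex IV, Cox4i1, which is the usual form of subunit 4, was at 277 and 206 CPM in SSMs and 316 and 335 in MSMs (−0.43, adjusted p = 0.135). Without library 2 of SSMs from ndLN the medians were −0.11 in complex I, −0.44 in complex II, −0.38 in complex III, −0.02 in complex IV and −0.18 in complex V. Complex II was then furthest below 0, ahead of complex III, and complexes IV and I were closest to 0.

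The core of each complex, the nuclear subunits that hold the redox centers or make ATP with their closest partners, was examined as a list of 20. Their summed level was 3876 and 3793 CPM in SSMs and 5395 and 5005 in MSMs of ndLN, and 4811 and 4868 in SSMs and 5575 and 5750 in MSMs of tdLN. The 2 libraries of SSMs from ndLN were close together in this sum, and both were below the other 6. In ndLN 4 of the 20 fell and 0 rose, against the 25.5% of all genes above the count minimum that were called, so the share was not above the background. All 20 had a negative log2 fold change, and the median was −0.38. Without library 2 of SSMs from ndLN 18 of 20 were negative with a median of −0.36, and Atp5b alone fell. The list shares 4 of its members with the 5 calls above (Sdhd, Uqcrfs1, Atp5c1 and Atp5b). Within complex V the catalytic subunits did not move by the same amount, since Atp5a1 was at 671 and 689 CPM in SSMs and 806 and 727 in MSMs of ndLN (−0.17, adjusted p = 0.295).

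Atp5d, the delta subunit of the central stalk of the ATP synthase, ran against the other members. It was at 361 and 294 CPM in SSMs and 205 and 243 in MSMs of ndLN, and at 263 and 282 in SSMs and 229 and 270 in MSMs of tdLN. It was the only member of the 75 that was higher without overlap in SSMs from ndLN (log2 fold change 0.55 ± 0.16, adjusted p = 0.0440, which misses the call). Over the alternatives its log2 fold change stayed between 0.30 and 0.84 and its adjusted p between 0.00421 and 0.232.

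In tdLN, SSMs and MSMs were compared in the same way. Of the 83 members 0 passed the call, where 8.69% of all genes and 18.3% of those above the count minimum did, 13 of the 75 had an unadjusted p under 0.05 (44.1% of all genes above the minimum), 6 an adjusted p under 0.05 (30.2%), and 6 passed a DESeq2 Wald test. The log2 fold change was negative in 61 and positive in 14 of 75 (50.5% of all genes above the minimum were positive) with a median of −0.19, against 0.01 over all, and 36 (48.0%) were lower without overlap where 35.7% of all were. The smallest adjusted p in complex IV was that of Cox7a2l at −0.82 ± 0.19 (0.0249), in complex V that of Atp5c1 at −0.52 ± 0.13 (0.0311), in complex I that of Ndufb11 at −0.70 ± 0.18 (0.0337) and in complex III that of Uqcrc2 at −0.52 ± 0.14 (0.0445), all by edgeR. Ndufb11, a membrane subunit of complex I, was at 86.7 and 93.6 CPM in SSMs and 129 and 165 in MSMs of tdLN. Uqcrc2, a core protein of complex III, was at 106 and 123 CPM in SSMs and 159 and 170 in MSMs. Complex II had a median of −0.05, with Sdhb at 225 and 229 CPM in SSMs and 211 and 232 in MSMs. Without library 2 of MSMs from tdLN the members' median was −0.02, with 43 of 75 negative.

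**Figure D3:**
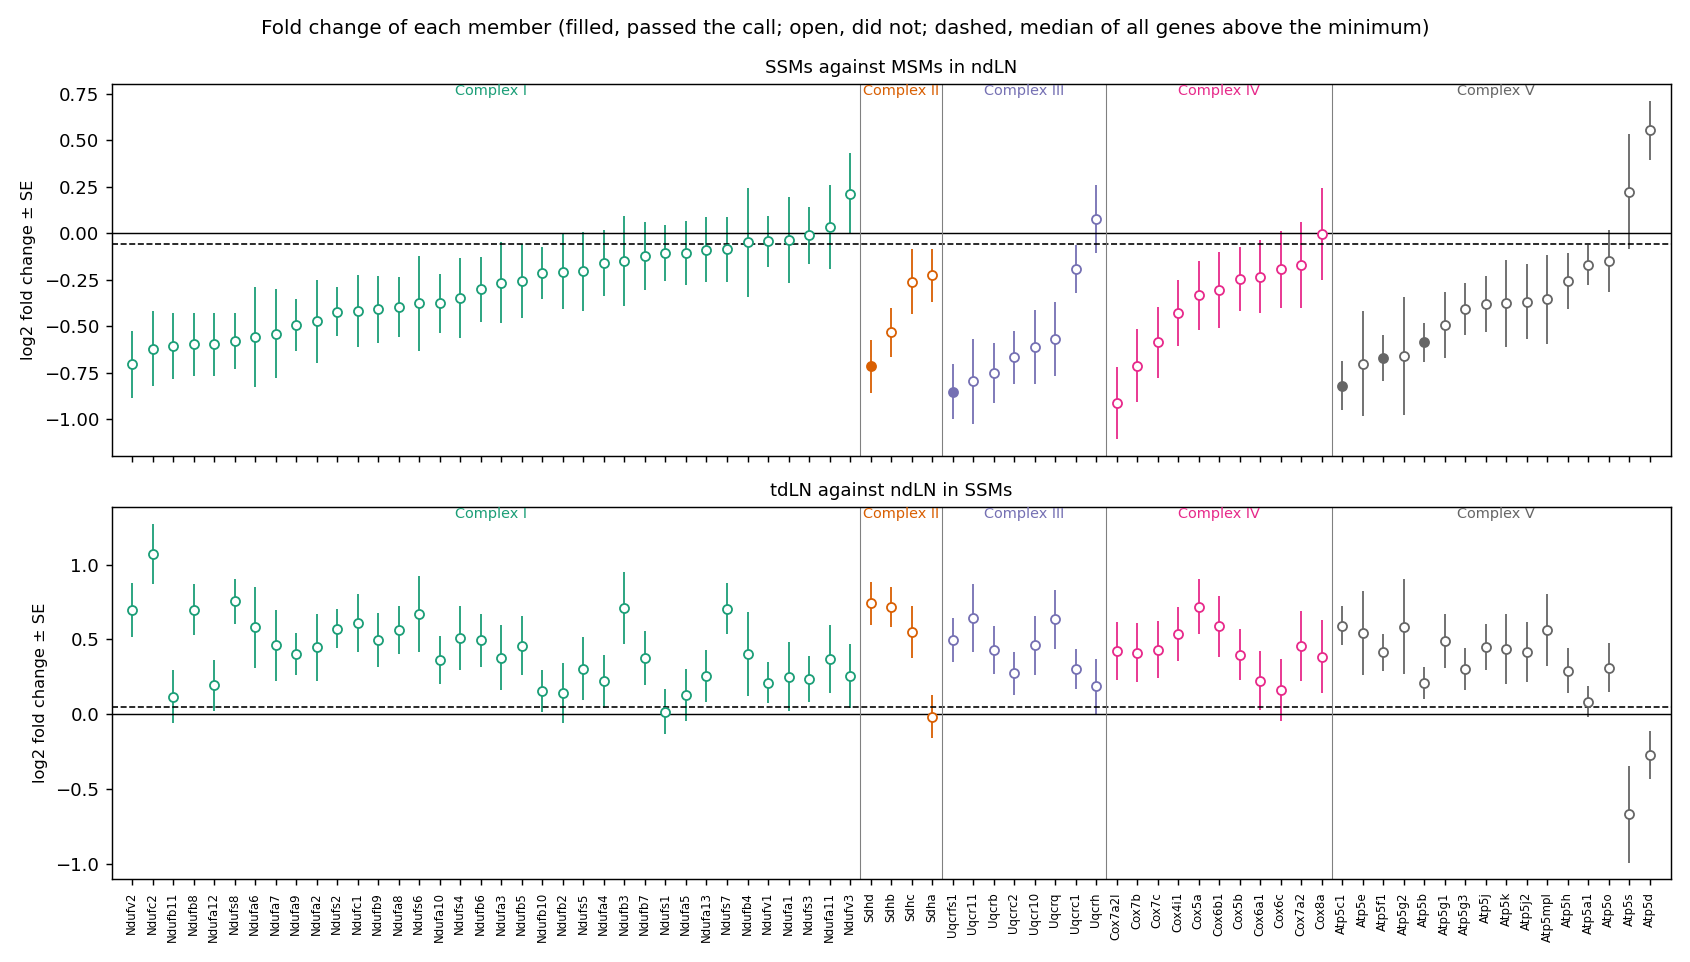
Log2 fold change with its SE (y axis) of the 75 members above the count minimum (x axis, by complex and by their fold change in ndLN) for SSMs against MSMs in ndLN (top) and tdLN against ndLN in SSMs (bottom), with filled points for calls and a dashed line at the median of all genes above the minimum. The top panel has 70 of 75 points below 0 with 5 filled, the bottom panel 72 of 75 above 0 with none filled, and both panels share the SSM ndLN libraries.

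SSMs of tdLN were then compared with SSMs of ndLN, where drainage of the tumor and the mix of node sites cannot be told apart. This comparison shares the SSM ndLN libraries with the ndLN comparison above, so opposite signs in the 2 are not independent. Of the members, 0 of 83 passed the call, where 3.04% of all genes and 6.4% of those above the count minimum did. An unadjusted p under 0.05 was reached by 29 of the 75 members (37.7% of all genes above the minimum), 8 had an adjusted p under 0.05 (18.3%), 2 passed the call without pool as a replicate block (Ndufc2 and Sdhb), and 10 passed a DESeq2 Wald test. The log2 fold change was positive in 72 of 75 (53.8% of all genes) with a median of 0.42, against 0.05 over all genes. Without overlap, 62 (82.7%) were higher and 2 lower, where 37.4% and 30.2% of all genes were. With library size alone 62 of 75 were positive with a median of 0.21 where that of all genes was −0.16, and relative to all genes the members' median was 0.38 under TMM, DESeq2's size factors and library size alone. Without library 2 of SSMs from ndLN the median was 0.17 with 64 positive, 0.09 above that of all genes.

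The members nearest to the call were in complexes I and II. Ndufc2, a small membrane subunit of complex I, was at 67.9 and 49.9 CPM in SSMs and 88.3 and 93.2 in MSMs of ndLN, and at 118 and 130 in SSMs and 114 and 145 in MSMs of tdLN (tdLN against ndLN in SSMs 1.07 ± 0.20, adjusted p = 0.0177). Sdhb, the iron-sulfur subunit of complex II, was at 144 and 132 CPM in SSMs and 208 and 192 in MSMs of ndLN, and at 225 and 229 in SSMs and 211 and 232 in MSMs of tdLN (0.72 ± 0.13, adjusted p = 0.0165). In both genes the SSM tdLN libraries were above the MSM libraries of ndLN and not apart from the MSM libraries of tdLN. Sdhd had a log2 fold change of 0.74 ± 0.14 (adjusted p = 0.0193). Sdha, the flavoprotein that holds the succinate site, was at 273 and 317 CPM in SSMs of ndLN and 302 and 283 in SSMs of tdLN (−0.02), so the subunits of complex II did not differ by the same amount. Complex II had the highest median of the 5 complexes, 0.63 over 4 members, and 0.51 without library 2 of SSMs from ndLN, though the log2 ratio of its summed level, 0.39, was below those of complexes I (0.44) and IV (0.43).

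Between the 2 SSM groups the medians of the remaining complexes were 0.40 in complex I, 0.44 in complex III and 0.42 in complexes IV and V. These medians without library 2 of SSMs from ndLN were 0.14 in complex I, 0.32 in complex III, 0.14 in complex IV and 0.16 in complex V, with 31 of 36, 7 of 8, 8 of 11 and 14 of 16 members positive. In the fit of all libraries, the 36 members of complex I, 8 of complex III and 11 of complex IV above the count minimum all had a positive log2 fold change under TMM. With library size alone, 30 of 36, 7 of 8 and 10 of 11 did. Ndufs8, an iron-sulfur subunit of complex I, was at 83.6 and 68.4 CPM in SSMs of ndLN and 124 and 132 in SSMs of tdLN. Cox5a, a subunit of complex IV, was at 80.2 ± 13.8 CPM and then 132 ± 4.71 (SD, n = 2). In both genes the groups did not overlap. Ndufs1 was at 70.4 and 75.3 CPM in SSMs of ndLN and 76.6 and 71.0 in SSMs of tdLN, with overlap. The 2 members that were lower in tdLN without overlap were Atp5d and Atp5s, known as coupling factor B, at 6.86 and 5.74 CPM in ndLN and 4.13 and 3.81 in tdLN.

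MSMs of tdLN and ndLN were compared in the same way. The call was passed by 0 of 83 members, by 0.0237% of all genes and by 0.05% of the genes above the count minimum. Further, 7 of 75 members had an unadjusted p under 0.05 against 18.2% of all, and 0 an adjusted p under 0.05 against 0.93%. DESeq2's Wald test, which called 503 genes in this comparison, called 0 members. The log2 fold change was positive in 72 of 75 (50.9% of all genes) with a median of 0.26 (0.01 over all genes), and 49 (65.3%) were higher without overlap where 25% of all genes were. Ndufa6, an accessory subunit of complex I, had the smallest adjusted p at 0.320, with 75.1 and 87.4 CPM in ndLN and 112 and 164 in tdLN (0.76 ± 0.27). In each of the complexes III, IV and V all members above the minimum were positive, 8, 11 and 16 in number. Library 2 of MSMs from tdLN carried much of this, since without it the median was 0.10 with 64 positive. Whether the node difference itself differed between subsets was tested by the interaction of subset and node. It was called for 0 of 83 members (0.0379% of all genes and 0.08% of those above the count minimum) with 3 of 75 at an unadjusted p under 0.05 (20.8% of all), and DESeq2's Wald test, with 706 genes, also called 0. The smallest adjusted p above the count minimum was 0.248, for Ndufs8 at 0.65 ± 0.21. The log2 estimate was positive in 61 of 75 (56.6% of all genes) with a median of 0.14 (0.08 over all genes), which became −0.06 without library 2 of SSMs from ndLN (0.11 over all genes). With library size alone it was −0.10 where that of all genes was −0.16, so that the members lay 0.06 above all genes under both scalings.

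**Figure D4:**
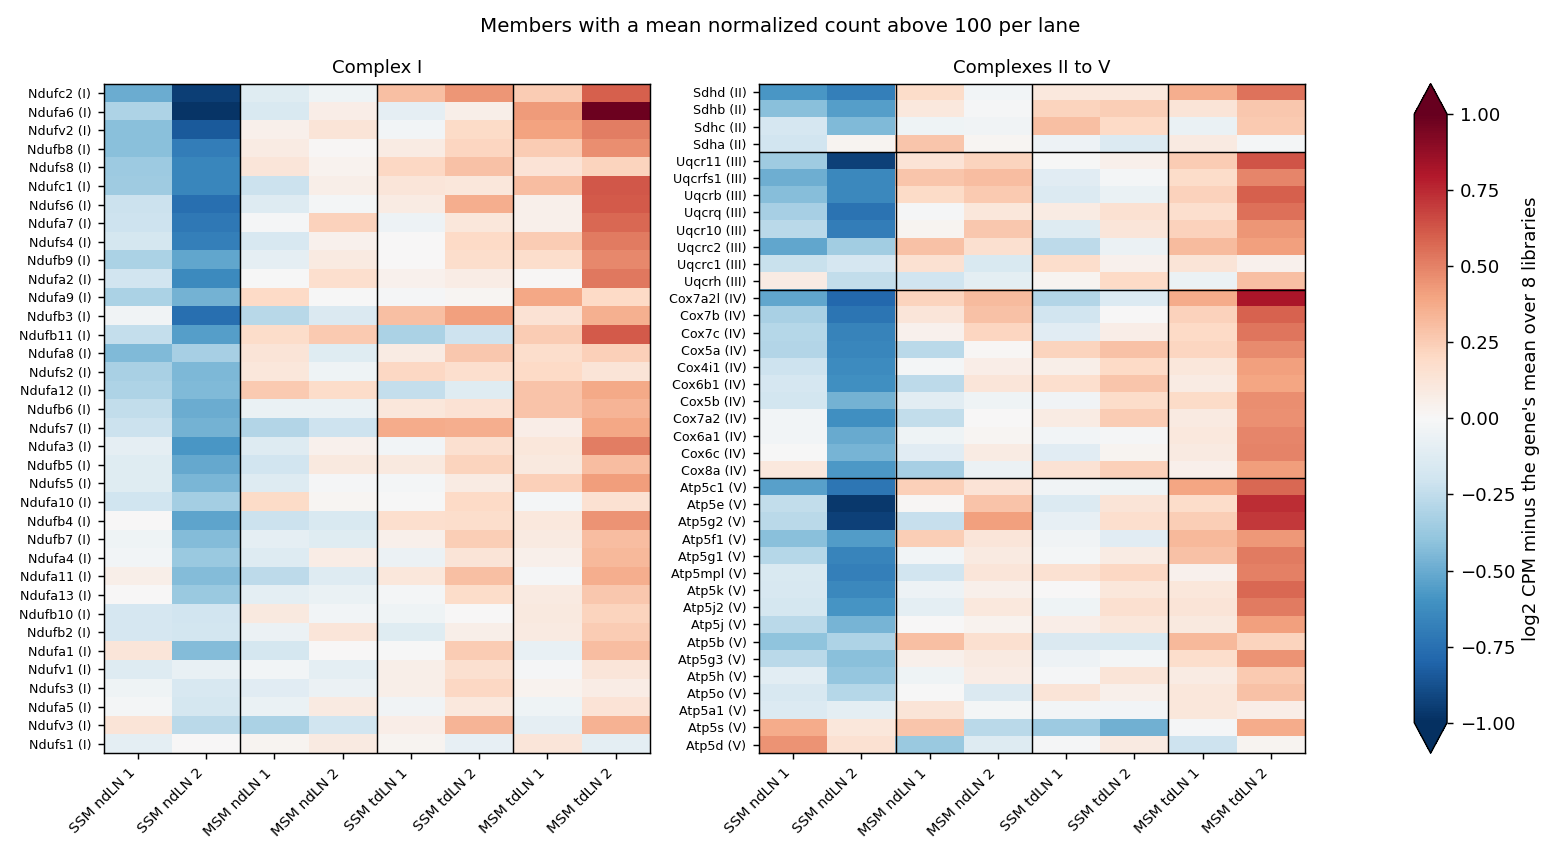
Log2 CPM of the 75 members above the count minimum (rows, by complex) in the 8 libraries (columns), as the difference from the gene's mean, blue for lower and red for higher, limited to 1 either side. The SSM ndLN columns are mostly blue, most of all library 2, and library 2 of MSMs from tdLN is the reddest column, with Atp5d and Atp5s running against the rest.

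Across all groups, both SSM ndLN libraries were below the other 6 libraries in 48 of the 75 members (64.0%), where 21.2% of all genes above the minimum were. That held for 19 of 36 members of complex I, 3 of 4 of complex II, 7 of 8 of complex III, 6 of 11 of complex IV and 13 of 16 of complex V. Library 1 alone was below the 6 others in 51 members and library 2 alone in 69. The share of all genes with either order was not counted, so these counts have no background beside them. Both MSM tdLN libraries were above the other 6 in 22 members (29.3%) where 10.5% of all genes were.

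Several subunits come as paralogs, and some paralogs of complex IV are known as forms of heart and skeletal muscle, lung or testis. The common forms made up nearly all of the transcripts per kb here, with Cox4i1 at 98.98% to 99.83% of the Cox4i pair, Cox6a1 at 99.66% to 99.98% of the Cox6a pair and Ndufa4 at 99.8% to 100% of its pair with Ndufa4l2. Among the genes of the c-ring of the ATP synthase, Atp5g3 took 77.9% to 83.0%. Of the 16 genes listed as tissue isoforms, 13 were tested, 8 of them above the count minimum, and 0 passed the call of edgeR in any comparison. By DESeq2's Wald test Cox7a2l fell in SSMs against MSMs in both ndLN (adjusted p = 0.000377) and tdLN (0.00129), and in ndLN it also fell by edgeR without pool as a replicate block, with the filterByExpr filter and with lane 3 alone. Among the low members, Cox6a2, the heart and muscle form, was at 35 and 30 counts in SSMs and 2 and 11 in MSMs of ndLN, Cox7a1 at 14 to 53 counts, Cox4i2, the lung form, at 14 to 79 counts and Atp5l at 129 to 237 counts per library. Ndufa4l2, Ndufb4c and Cox6c2 had at most 9 counts in any library, and a count of 0 in a library allows up to between 0.0552 and 0.0769 CPM.

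In the Cox6a and Cox6b families the shares of the paralogs did not overlap between SSM and MSM libraries. In the Cox7a family this held for Cox7a2 and Cox7a2l, while the shares of Cox7a1 overlapped. The share of Cox6a2 in the Cox6a pair was 0.154% to 0.340% in the 4 SSM libraries and 0.0210% to 0.0959% in the 4 MSM libraries, without overlap. It rests on the low counts given above for ndLN and on 17 and 33 counts in SSMs and 8 and 9 in MSMs of tdLN. How many genes of all separated the SSM from the MSM libraries of both nodes was not counted, so these shares have no background beside them. Cox7a2l is known for a protein linked to supercomplexes of complexes III and IV, but neither that protein nor supercomplexes were measured here. It was at 37.2 and 31.0 CPM in SSMs and 62.4 and 66.6 in MSMs of ndLN, and at 43.5 and 48.5 in SSMs and 69.0 and 94.2 in MSMs of tdLN. Its log2 fold change between subsets was −0.91 ± 0.20 in ndLN (adjusted p = 0.0128) and −0.82 ± 0.19 in tdLN. The share of Cox7a2l among the Cox7a genes, which does not depend on scaling, was between 17.9% and 21.4% in the 4 SSM libraries and between 27.1% and 29.8% in the 4 MSM libraries, without overlap. Cox7a2 itself was at 108 and 71.8 CPM in SSMs and 93.0 and 110 in MSMs of ndLN, with overlap.

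Cox6b2, known as the testis form of subunit 6b, was low throughout, with 17 and 35 counts in SSMs of ndLN and 141 to 270 counts in the other 6 libraries. In CPM it was at 0.313 and 0.707 in SSMs and 4.28 and 4.12 in MSMs of ndLN, and at 3.16 and 3.26 in SSMs and 4.73 and 5.94 in MSMs of tdLN. The ndLN difference was −3.06 ± 0.48 on the log2 scale, an 8.31-fold lower level in SSMs, with an adjusted p of 0.00315 that would pass the call were the mean count not under the minimum. Between tdLN and ndLN in SSMs it was 2.67 ± 0.50 (adjusted p = 0.0178). Its interaction of subset and node was 2.32 ± 0.61 (adjusted p = 0.155). It was at no more than 1.50% of the Cox6b pair in any library.

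**Figure D5:**
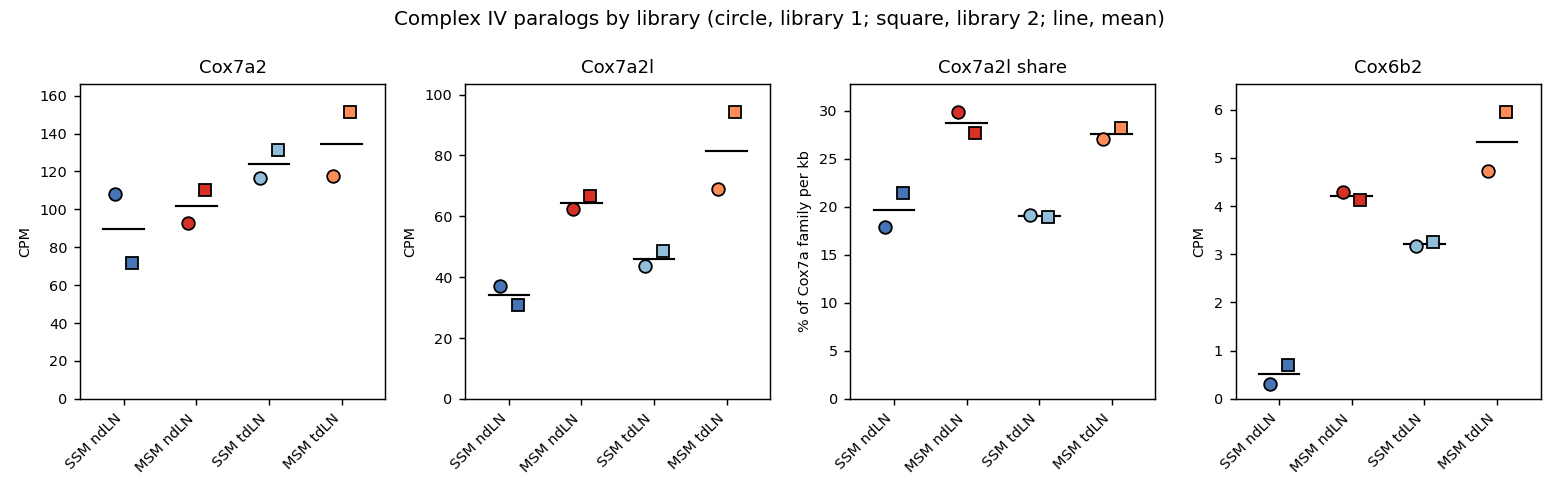
Levels of Cox7a2, Cox7a2l and Cox6b2 in CPM, and Cox7a2l as a percent of the Cox7a genes per kb (y axes, from 0), in the 8 libraries by group, with circles for library 1, squares for library 2 and lines at the group means. The share of Cox7a2l is 17.9% to 21.4% in SSM and 27.1% to 29.8% in MSM libraries, and Cox6b2 is lowest in SSMs from ndLN.

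The subunits encoded in mitochondrial DNA were measured only in part. Of the 13, 4 were at 0 counts in all libraries (mt-Nd3, mt-Nd4l, mt-Atp6 and mt-Atp8), mt-Co2 and mt-Co3 were at most at 0.0224 CPM, and the other 7 were tested. Genes such as mt-Atp6, mt-Co2 and mt-Co3 are abundant in most cells, and whether their absence here comes from how reads were counted was not tested. The 13, in effect the 7 tested genes, summed to 4359 and 1969 CPM in SSMs and 1868 and 3475 in MSMs of ndLN, and to 2751 and 2816 in SSMs and 2650 and 2930 in MSMs of tdLN. The 2 libraries of each ndLN group were farther apart than the groups. None of the 7 passed the call in the 5 comparisons (edgeR), and in ndLN 6 of 7 were positive with a median of 0.36 and the smallest adjusted p was 0.234, for mt-Nd2. All 7 were positive in ndLN without library 2 of its SSMs, with a median of 1.04, and 0 passed. The difference from the nuclear subunits was not tested.

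The factors that load electrons into the chain, build it or control its genes were examined by lists. As background, 25.5% of all genes above the count minimum were called for SSMs against MSMs in ndLN and 18.3% in tdLN. Between tdLN and ndLN in SSMs the share was 6.4%. Of the 46 assembly factors, which put the complexes together, 44 were tested and 1 rose and 1 fell in SSMs against MSMs of ndLN. Ndufaf6, needed to assemble complex I, fell by 1.39 ± 0.23 on the log2 scale (5.06 and 4.79 CPM against 13.7 and 12.2), and Cox10, which makes heme for complex IV, rose by 1.14 ± 0.23 (22.4 and 22.2 against 10.7 and 9.49). The list's median was −0.27. Of the 15 genes for mobile carriers and coenzyme Q synthesis, 1 rose and 3 fell, a share near the background. Cycs, cytochrome c itself, was at 69.1 and 56.1 CPM in SSMs and 144 and 127 in MSMs and fell by 1.11, Ndufab1, the acyl carrier protein that is also a part of complex I, fell by 0.99, and Coq2, which attaches the tail of coenzyme Q, fell by 1.06. Coq8a, a kinase-like protein of coenzyme Q synthesis, rose by 3.27 ± 0.21, from 17.9 and 19.3 CPM in MSMs to 143 and 222 in SSMs, and fell by 2.03 in SSMs of tdLN against ndLN.

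In the tricarboxylic acid cycle, which supplies NADH and succinate, 4 of 18 genes fell and 1 rose in SSMs against MSMs of ndLN. This share is near the 25.5% of all genes above the count minimum that were called. Idh2, the mitochondrial isocitrate dehydrogenase, was at 37.7 and 41.2 CPM in SSMs and 122 and 95.7 in MSMs and fell by 1.45 ± 0.17. Cs, citrate synthase, fell by 0.82, and Pdha1, a subunit of pyruvate dehydrogenase, rose by 0.94. Between tdLN and ndLN in SSMs, 2 rose and 0 fell, namely Fh1, fumarase, by 1.36 ± 0.15 (49.8 and 48.7 CPM in ndLN, 115 and 139 in tdLN) and Idh2 by 1.09 ± 0.16. Of 16 regulators of mitochondrial biogenesis, 2 rose and 0 fell in SSMs against MSMs of ndLN. Gabpb1, a subunit of GABP, was at 261 and 318 CPM in SSMs and 68.5 and 72.7 in MSMs, and Tfam, which packs and transcribes mitochondrial DNA, at 68.2 and 68.6 against 17.8 and 27.3. Both were thus higher in the group in which the subunits were lowest, while Nrf1 was at 56.2 and 62.2 against 63.6 and 49.1 CPM, with overlap. Gabpb1 fell by 1.03 in SSMs of tdLN against ndLN.

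Hypoxia-responsive genes counted 3 rises and 1 fall among 13 in ndLN, where 25.5% of all genes above the count minimum were called. Egln3, an oxygen sensor, was at 58.0 and 78.2 CPM in SSMs and 2.64 and 2.47 in MSMs, Vegfa at 889 and 1013 against 135 and 173, and Epas1 rose by 4.51. Of 11 measured genes of uncoupling and mitochondrial redox control, 2 rose and 1 fell, a share near that of all genes. Acod1, which makes itaconate, an inhibitor of complex II, was at 38.8 and 39.3 CPM in SSMs and 2.51 and 1.96 in MSMs, and the peroxidase Prdx5 rose by 1.11. Ucp2, a carrier of the inner membrane, was at 1083 and 878 against 2711 and 2379 CPM and fell by 1.38 ± 0.17. The calls that remained in ndLN without library 2 of its SSMs were the fall of Coq2 and rise of Coq8a among the carriers, the fall of Idh2 in the tricarboxylic acid cycle, the rises of Gabpb1 and Tfam, all 4 hypoxia calls and the rises of Acod1 and Prdx5, with 0 among the assembly factors, and between tdLN and ndLN in SSMs none of these lists kept a call. In tdLN, SSMs against MSMs, these lists counted 0 rises and 1 fall for assembly, 1 and 1 for carriers, 1 and 0 for the tricarboxylic acid cycle, 2 and 0 for the regulators, 5 and 0 for hypoxia and 2 and 0 for redox control. Between tdLN and ndLN in SSMs, Egln3 fell by 1.60 and the assembly and redox lists counted 0 calls, and in MSMs and for the interaction none of the lists had a call (edgeR).

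Markers of other cells and of growth also differed between the groups, though not always in the order of the members. By group means, the members' summed level rose in the order SSM ndLN, SSM tdLN, MSM ndLN, MSM tdLN (8133, 10385, 10592 and 12212 CPM). The summed T cell, NK and cytotoxic, innate-like lymphocyte, basophil and mast cell, and plasma cell levels fell in that same order. Those of T cells were 2799, 1327, 793 and 523 CPM. The macrophage, B cell, neutrophil, dendritic cell and proliferation sums had neither order, with dendritic cell and proliferation sums lowest in SSMs from tdLN. Of all genes above the count minimum, 25.5% were called for SSMs against MSMs in ndLN, 18.3% in tdLN and 6.4% between nodes in SSMs. In a bulk sample, fewer cells of a type and less RNA per cell cannot be told apart. In SSMs against MSMs of ndLN, 11 of 12 T cell markers rose and 1 fell, with a summed level of 2651 and 2947 CPM against 862 and 723, as did 9 of 10 markers of NK and cytotoxic cells (3626 and 2904 against 346 and 331), 10 of 12 of innate-like lymphocytes (2150 and 2789 against 668 and 705) and 9 of 12 of basophils and mast cells (2904 and 1718 against 66.3 and 77.5). Of 10 dendritic cell markers, 7 fell (1651 and 2403 against 4711 and 4339 CPM), and of 12 proliferation genes 9 fell (332 and 442 against 967 and 799). Plasma cell markers counted 2 rises of 6 and neutrophil markers 2 of 10, and B cell markers 0 of 10, with 1504 CPM in library 1 of MSMs from ndLN and 220 to 375 in the other 7 libraries. In tdLN the T cell list counted 10 rises and 1 fall, NK and cytotoxic cells 9 rises, innate-like lymphocytes 8 rises and 1 fall, basophils and mast cells 8 rises, dendritic cells 9 falls and proliferation 10 falls. Neutrophil markers counted 4 rises there, plasma cell markers 2 rises and B cell markers 1 fall. The 14 macrophage markers counted 2 rises and 3 falls in ndLN, and 3 rises in tdLN. Without library 2 of SSMs from ndLN, in ndLN 9 T cell, 9 NK, 8 innate-like lymphocyte and 9 basophil and mast cell markers rose and 6 dendritic cell and 8 proliferation genes fell. Apart from Vsig4 among the macrophage markers, none of these lists had a marker at 0 in all libraries. Between tdLN and ndLN in SSMs, 9 of 14 macrophage markers rose (9154 and 5954 CPM in ndLN, 23185 and 15981 in tdLN), 3 of 12 T cell and 7 of 12 innate-like lymphocyte markers fell, and 0 of 12 proliferation genes passed (330 and 320 CPM in tdLN). When library 2 of SSMs from ndLN was left out, 0 macrophage, T cell, innate-like lymphocyte and proliferation genes passed between nodes in SSMs, where edgeR called 18 genes in all. The part of these cells, and of proliferation, in the levels of the respiratory chain genes was not tested.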

How the data were processed

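The authors made libraries from sorted cells with SMART-Seq v4, sequenced them on an Illumina HiSeq instrument, and aligned reads to mm10. Per the submitters' processing notes they used bcl2fastq 2.20.0.422, Trimmomatic 0.36 and STAR 2.5.3a. They deposited raw read counts per gene for 16 samples, with no normalization; the strand setting is not given in the sources used here, so reads of overlapping antisense genes may not be separated. The 2 rows that name no gene, with 6 counts in all, were left out. Symbols and positions came from GENCODE M21.

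The 16 samples are 8 libraries on lanes 3 and 4. Lanes 3 and 4 of the same library differed by about the sampling noise (chi-square per degree of freedom 0.955 to 1.015 over all genes and 0.833 to 1.32 over the members, against 29.3 to 53.1 and 7.51 to 37.4 for library 1 against 2), so they were summed and counted as 1 sample. Counts were fitted with edgeR 4.0.16 in R 4.3.3 (TMM factors 0.902 to 1.15, quasi-likelihood test, group plus pool) over the 21085 genes with 10 or more counts in total that 2 or more samples detected, and adjusted by Benjamini-Hochberg over all of them. A call needs an adjusted p under 0.01 and a mean normalized count above 100 per lane. Normalized counts are scaled to 1 lane. Genes of other lists said to have risen or fallen passed this call.

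The pool number in the labels was used to pair libraries, because by the study's methods each pool of mice gave all 4 groups. The label of library 1 of SSMs from tdLN carries no pool number, so its place in pool 1 was inferred. The correlation between same-numbered libraries, each as its difference from its group's mean, was -0.188 to 0.146 over 9996 genes, and -0.763 to 0.58 over the 75 members, negative wherever SSMs from ndLN were one of the pair. The sample matrix of the study numbers 4 pools, 1 per lane, while the labels number 2. P-values measure the spread that remains between libraries after the pool term. It was estimated over all 4 groups together, with 2 libraries per group.

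The members and lists were chosen with earlier results of these data known. Named were the core subunits, the tissue isoforms, up to 3 called members per complex and direction or that with the smallest adjusted p, up to 3 called genes per other list, and the extremes of level. Atp5d, Uqcrh and other members outside that rule, and the single marker genes, were named after their values were seen. Statistical scripts were tested on simulated data. Other versions were DESeq2 1.42.0, Python 3.11.15, pandas 2.3.3, numpy 2.4.6, scipy 1.17.1 and matplotlib 3.10.9. At 42972328 counts or more per library a count of 0 allows 3 counts, which covers counting error only. The alternatives were the model without pool, DESeq2, other scalings and filters, the legacy fit, an adjusted p under 0.05, lane 3 alone and each library left out.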

Additional observations from a re-analysis of the deposited data

How the results depend on the processing

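Members called between SSMs and MSMs of ndLN were 5, and 8 without pool as a replicate block, 15 by a DESeq2 Wald test, 1 with library size alone (a rise of Atp5d), 8 with edgeR's filterByExpr filter, 18 at an adjusted p under 0.05, and 0 to 7 with each library left out in turn. In tdLN the 0 became 6 by DESeq2 and 6 at an adjusted p under 0.05, and stayed 0 when a library was left out. For tdLN against ndLN in SSMs the 0 became 2 without pool as a block, 10 by DESeq2 and 8 at an adjusted p under 0.05. The count of members did not change for tdLN against ndLN in MSMs or for the interaction under any alternative. Over all genes, DESeq2 called 3690 in ndLN against 2546 by edgeR, and 3026 against 1833 in tdLN, 1973 against 640 between nodes in SSMs, 503 against 5 in MSMs and 706 against 8 for the interaction. With each library left out, edgeR called 1082 to 2022, 507 to 1867, 2 to 345, 0 to 3 and 0 genes in these 5 comparisons, where fewer libraries entered the fit, and lane 3 alone or the other filters and scalings gave 2 to 24 in MSMs and 4 to 25 for the interaction. The cause of DESeq2's larger counts was not tested.

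The log2 ratios of summed CPM between SSMs and MSMs of ndLN were −0.32 in complex I, −0.40 in II, −0.51 in III, −0.34 in IV and −0.40 in V, and with library size alone, where the median of all genes above the minimum moved from −0.06 to 0.23, −0.036, −0.11, −0.22, −0.053 and −0.11. Between tdLN and ndLN in SSMs they were 0.44 in I, 0.39 in II, 0.39 in III, 0.43 in IV and 0.24 in V, and with library size alone, where that median moved from 0.05 to −0.16, 0.23, 0.18, 0.19, 0.23 and 0.031. DESeq2's size factors gave 0.33 in II, and the mean of log2(CPM + 1) gave 0.50 in II and 0.32 in V, and 0.23 in V for MSMs. With each library left out, an alternative added after seeing the data, the ndLN ratios ranged over −0.48 to −0.18 in I, −0.49 to −0.31 in II, −0.58 to −0.44 in III, −0.58 to −0.13 in IV and −0.45 to −0.35 in V, and those of tdLN against ndLN in SSMs over 0.30 to 0.60, 0.37 to 0.41, 0.32 to 0.47, 0.22 to 0.68 and 0.19 to 0.29. None of these ratios changed sign under these alternatives. Of the 46 fold changes of named members that were followed, the 5 that were called kept the call in 40 values under alternatives and lost it in 40, and the 41 that were not called gained one in 38 values and had none in 618. With 2 libraries per group, a miss of the threshold does not show that levels were alike.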
